A study of Mus musculus with 6 samples.

Results

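A set of 10 genes of lipid storage, fatty acid binding and PPAR signalling was followed by RNA-seq in macrophages that were sorted from the lamina propria of the mouse colon. They are Pparg, Ppard, Fabp4, Fabp5, Lpl, Plin2, Pdk4, Angptl4, Cpt1a and Acsl1, chosen by name for their known roles. Each of these 10 symbols was found once among the 25124 gene rows of the deposited table of TPM (a transcript's level corrected for exon length and depth). There were 3 transgenic libraries (TG) from C57BL/6 mice that overexpress the transcription factor E4BP4, the product of Nfil3, in macrophages, and 3 wild type libraries (WT) from C57BL/6 mice without the transgene. All mice were 8 weeks old, and the labels give both groups the same colitis protocol: 2.0% dextran sulfate sodium, which injures the colonic epithelium, in the drinking water for 7 days, plain water for another 7 days, and collection on day 14. The promoter that drives the transgene is not given in the sources used here, and the genotype field of TG replicates 2 and 3 carries another final digit in the gene name than that of replicate 1, so groups follow the sample titles. Whether each library is a mouse of its own or a pool is not stated, so the p-values rest on a spread between libraries that may be technical.

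PPARs are nuclear receptors that bind DNA as dimers with RXR and are activated by fatty acids and their derivatives. In macrophages PPAR-gamma is known for genes of lipid uptake and fatty acid binding, and PPAR-delta for genes of fatty acid oxidation. Fatty acids reach the cell through lipoprotein lipase at its surface, are carried in the cytosol by fatty acid binding proteins, are activated to acyl-CoA, and are then stored in lipid droplets or moved into mitochondria to be oxidised.

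The 10 genes did not move as a group in TG macrophages. Lpl, which encodes lipoprotein lipase, rose 1.82-fold, the lipid droplet coat gene Plin2 rose 1.21-fold and Cpt1a, which encodes the enzyme that commits fatty acids to mitochondrial import, rose 1.15-fold. Fabp5, the fatty acid binding protein gene with the highest level in these cells, was 1.91-fold lower, Fabp4 was 1.43-fold lower and Ppard was 1.20-fold lower. Pparg, Acsl1 and Angptl4 did not pass the test. Differences were tested with limma on log2(TPM + 1) over the 12633 genes whose TG or WT mean reached 1 TPM, and a gene was called at a Benjamini-Hochberg adjusted p below 0.05. Of the 9 genes tested, 3 were called higher, where 8.71% of all tested genes were, and 3 were called lower, where 13.2% were. The TG and WT values did not overlap for the same 3 and 3 genes, as for 17.1% of all tested genes in the higher direction and 22.3% in the lower. Of all calls 39.8% were in the higher direction, or 52.0% with upper-quartile scaling, which left the 3 and 3 calls as they were. The median log2 fold change was -0.06 over the 9 genes and -0.01 over all tested genes. Pdk4 had a mean below 1 TPM in both groups and was not tested.

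**Figure D1:**
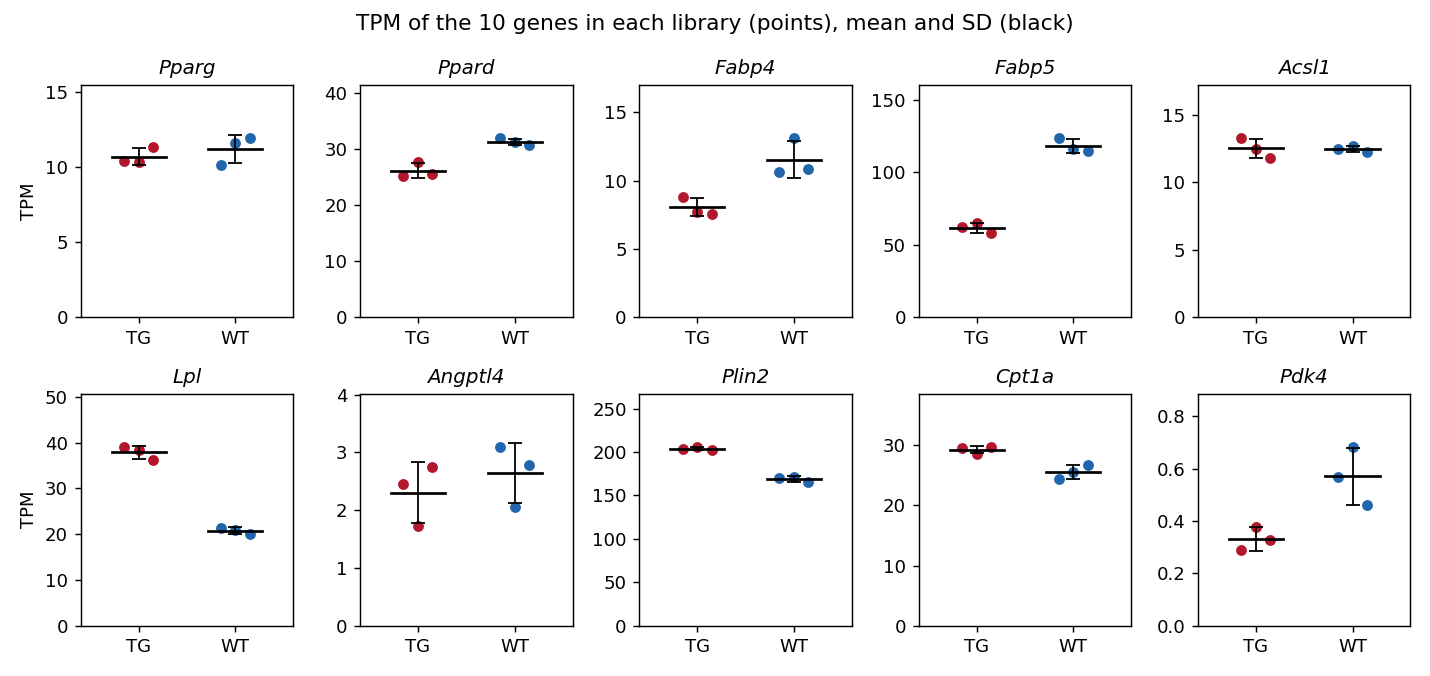
TPM of the 10 genes in the 3 TG and 3 WT libraries, with the mean and SD in black and a linear axis from 0 for each gene. Lpl, Plin2 and Cpt1a lie higher in every TG library than in any WT library, Fabp5, Fabp4, Ppard and Pdk4 lie lower, and Pparg, Acsl1 and Angptl4 overlap.

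Each library had 17.25 to 18.90 M (1e6) reads by its column header, and 13.97 to 15.06 M of them were recovered as gene reads from the TPM steps. Nfil3, the targeted gene, stood at 133, 134 and 141 TPM in TG libraries and at 117, 119.9 and 119 TPM in WT libraries. Its level was higher in every TG library, and whether this mouse transcript row takes up all reads of the transgene is not given in the sources used here. Of 10 macrophage markers (Adgre1, Csf1r, Cd68, C1qa and others) 4 were called higher and 4 lower (limma). Together the 10 summed to 17535 to 17620 TPM in TG libraries and 17814 to 18001 TPM in WT libraries. Lyz2, named after its values were seen, has the highest level of the 10 and weighs most in this sum. It was at 5945 TPM in TG and 6670 TPM in WT, while C1qa, among the 4 called higher, was at 3418 and 3232 TPM. These are bulk samples, so fewer cells of a type and less RNA per cell cannot be told apart.

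The 10 genes span a wide range of levels. In TG libraries the order of mean TPM was Plin2, Fabp5, Lpl, Cpt1a, Ppard, Acsl1, Pparg, Fabp4, Angptl4 and Pdk4, and each neighbour in this order lay apart from the next over the 3 libraries. In WT libraries it was Plin2, Fabp5, Ppard, Cpt1a, Lpl, Acsl1, Fabp4, Pparg, Angptl4 and Pdk4. The WT values of Acsl1 overlapped those of Fabp4, and those of Fabp4 overlapped those of Pparg. Lpl thus took the third place in TG libraries and the fifth place in WT libraries. Plin2 lay above 97.0% of tested genes in TG and above 96.1% in WT, while Angptl4 lay above 15.2% in TG and 17.6% in WT. The TPM of the 10 genes summed to 386 to 398 in TG libraries and 396 to 408 in WT libraries. Plin2 made up 51.9% ± 0.497 of that sum in TG libraries and 41.9% ± 0.342 in WT libraries, and Fabp5 made up 15.7% ± 0.632 in TG libraries and 29.3% ± 0.838 in WT libraries (SD, n = 3 each).

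Pparg encodes PPAR-gamma, the receptor best known for adipocyte and alveolar macrophage differentiation. It lies on chromosome 6 at 115361144 to 115490401, plus strand (mm10). Its row, the protein-coding transcript NM_001308352, was matched to a GENCODE vM21 transcript with 8 exons. It stood at 10.4, 10.3 and 11.3 TPM in TG libraries and at 10.1, 11.6 and 11.9 TPM in WT libraries. The groups overlapped, with WT replicate 1 the lowest of all 6. The log2 fold change was -0.06 (95% interval -0.24 to 0.11, limma adjusted p = 0.612), which on this scale spans 0.848-fold to 1.08-fold. Among the 3 genes outside the 10 whose centred log2 profile over the 6 libraries lay closest to that of Pparg were Med20 and Ankrd40, with root mean square differences of 0.0317 and 0.0323 on the log2 scale.

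Ppard encodes PPAR-delta, the more widely expressed receptor of the pair. The gene is on chromosome 17 at 28232754 to 28301469, plus strand. It stood at 25.2, 27.8 and 25.6 TPM in TG libraries and at 31.9, 31.3 and 30.8 TPM in WT libraries. All 3 TG values lay below all WT values, with TG replicate 2 the nearest. The mean was 26.2 ± 1.41 TPM in TG and 31.3 ± 0.585 TPM in WT (SD, n = 3 each), a log2 fold change of -0.25 ± 0.049 (SE, limma adjusted p = 0.00908). The TPM of Ppard exceeded that of Pparg by 2.46 ± 0.219 times in TG libraries and 2.81 ± 0.298 times in WT libraries (SD, n = 3 each), and these ratios overlapped.

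For 6 of the 10 genes, 9 start sites had a promoter sequence in RefSeq (GRCm38.p6, from 250 bases before the start to 50 after it). The other 4 genes are Fabp4, Fabp5, Lpl and Angptl4. The promoters of Plin2, Cpt1a and Ppard, the called genes with an entry, are given 5′ to 3′ on the gene's strand, with matches in capitals. Plin2 is at chr4:86670010-86670309 (minus strand), Cpt1a at chr19:3323051-3323350 (plus strand) and Ppard at chr17:28232504-28232803 (plus strand).
Plin2: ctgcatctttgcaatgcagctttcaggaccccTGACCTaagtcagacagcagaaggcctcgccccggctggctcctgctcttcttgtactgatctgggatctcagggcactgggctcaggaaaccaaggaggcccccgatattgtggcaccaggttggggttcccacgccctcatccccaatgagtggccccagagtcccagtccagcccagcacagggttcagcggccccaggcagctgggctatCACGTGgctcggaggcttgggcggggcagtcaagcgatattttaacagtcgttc
Cpt1a: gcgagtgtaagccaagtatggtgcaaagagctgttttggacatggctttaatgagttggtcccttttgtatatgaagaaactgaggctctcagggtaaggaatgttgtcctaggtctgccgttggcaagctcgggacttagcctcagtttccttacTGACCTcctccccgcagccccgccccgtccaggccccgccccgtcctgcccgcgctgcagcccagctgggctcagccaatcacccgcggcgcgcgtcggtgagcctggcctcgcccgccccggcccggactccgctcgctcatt
Ppard: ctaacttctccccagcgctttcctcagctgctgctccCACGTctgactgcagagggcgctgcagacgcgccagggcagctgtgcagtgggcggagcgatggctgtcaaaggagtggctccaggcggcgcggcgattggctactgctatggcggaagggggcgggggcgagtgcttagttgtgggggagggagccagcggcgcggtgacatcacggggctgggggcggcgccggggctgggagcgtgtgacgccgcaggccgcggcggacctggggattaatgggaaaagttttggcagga

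Motifs of nuclear receptors, of the hypoxia factor and of E4BP4 were searched on both strands of these windows. The nuclear receptor half-site AGGTCA, which reads TGACCT on the other strand, is in the promoters of Plin2 and Cpt1a and in 2 of 3 Pparg promoters, and in 16.3% of 32851 promoters of the same length. The hypoxia factor core ACGTG is in those of Plin2 and Ppard, and in 19.6% of all. In Plin2 its 2 matches lie on opposite strands of the same stretch, CACGTG, across the start site. These letters read alike on both strands, so a match on either strand brings the other with it. The direct repeat AGGTCANAGGTCA, which contains the half-site, and the E4BP4 sites TTACGTAA and TTATGTAA are in none of the 9 windows, and in 0.0396%, 0.119% and 0.938% of all promoters. These are matches of letters in a window and no measure of binding.

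Fabp5 and Fabp4 encode cytosolic fatty acid binding proteins and lie in 1 cluster on chromosome 3, Fabp5 at 10012585 to 10016610 (plus strand) and Fabp4 at 10204343 to 10208616 (minus strand). The cluster's other genes, Pmp2, Fabp9 and Fabp12, were listed at 0 in all 6 libraries. Fabp5 is the epidermal form that is also abundant in macrophages. It stood at 61.8, 64.9 and 58.2 TPM in TG libraries and at 123, 116 and 115 TPM in WT libraries. The groups lay far apart, with the highest TG library well below the lowest WT library. The mean was 61.6 ± 3.39 TPM in TG and 118 ± 4.66 TPM in WT (SD, n = 3 each), a log2 fold change of -0.93 ± 0.047 (SE, limma adjusted p = 1.21e-05). Only 151 of the 12633 tested genes had a lower log2 fold change. Of the 50-base words of its transcript, 21.1% also occur in other GENCODE transcripts, among them the processed pseudogene Fabp5l2, so reads from that stretch may have been lost or shared, while the other words are its own.

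Fabp4 encodes the adipocyte form of the binding protein, also known in macrophages and in capillary endothelium. It stood at 8.80, 7.71 and 7.58 TPM in TG libraries and at 10.6, 13.1 and 10.9 TPM in WT libraries. The groups did not overlap, and WT replicate 2 was the highest. The log2 fold change was -0.47 ± 0.095 (SE, limma adjusted p = 0.0107). The values rest on 78, 64 and 68 reads in TG libraries and on 88, 113 and 92 reads in WT libraries, and the call was lost with voom on the recovered reads (adjusted p = 0.0526) and in the authors' deposited table (adjusted p = 0.191). Endothelial markers were lower in the same libraries, summing to 35.3 to 40.6 TPM in TG and 59.5 to 63.6 TPM in WT. Of 10 tested endothelial markers 9 were lower (4 without TG replicate 2, 5 without TG replicate 3, at most 7 with any 1 library left out). Their part in the Fabp4 result was not tested. The adipocyte markers Adipoq and Lep had 8 and 5 reads over the 3 TG libraries and none over the 3 WT libraries. Cidec had 21 reads in TG and 36 in WT, Cfd had 28 and 33, and Adrb3 was at 0 in all 6. Of the 2 tested adipocyte markers, Car3 was called higher, with 78 reads in TG and 22 in WT (limma adjusted p = 0.0474). That call was lost without any 1 library other than WT replicate 1. The adipocyte list of 10 summed to 2.91 to 4.79 TPM in TG and 2.48 to 3.20 TPM in WT. The TPM of Fabp5 was 7.71 ± 0.697 times that of Fabp4 in TG libraries and 10.4 ± 1.40 times in WT libraries (SD, n = 3 each).

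Lpl, whose product hydrolyses the triglycerides of lipoproteins, lies on chromosome 8 at 68880555 to 68906932, plus strand, with 10 exons. It stood at 39.0, 38.3 and 36.3 TPM in TG libraries and at 21.4, 20.9 and 20.0 TPM in WT libraries. Every TG library lay far above every WT library. The mean was 37.8 ± 1.42 TPM in TG and 20.8 ± 0.739 TPM in WT (SD, n = 3 each), a log2 fold change of 0.84 ± 0.048 (SE, limma adjusted p = 2.11e-05), and 125 of the 12633 tested genes had a higher one. Its reads numbered 1900 to 2067 in TG libraries and 1012 to 1080 in WT libraries. Lpl and Fabp5 moved in opposite directions, so that the ratio of their TPM was 0.614 ± 0.0219 in TG libraries and 0.176 ± 0.00384 in WT libraries (SD, n = 3 each).

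Angptl4 encodes a secreted inhibitor of lipoprotein lipase that is a known target of PPARs and of hypoxia. The gene is on chromosome 17 at 33774900 to 33781575, minus strand. It stood at 2.45, 1.72 and 2.74 TPM in TG libraries and at 3.09, 2.06 and 2.78 TPM in WT libraries. The groups overlapped, and replicate 2 was the lowest in each. The log2 fold change was -0.14 (95% interval -0.52 to 0.24, limma adjusted p = 0.581). The interval spans 0.696-fold to 1.18-fold on this scale, and the values rest on 40 to 72 reads per library.

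Acsl1 encodes a long-chain acyl-CoA synthetase, which activates fatty acids for storage or oxidation. It lies on chromosome 8 at 46471037 to 46536051, plus strand. It stood at 13.3, 12.5 and 11.8 TPM in TG libraries and at 12.5, 12.7 and 12.3 TPM in WT libraries. The groups overlapped, the highest and the lowest value both being TG. The log2 fold change was 0.0028 with a 95% interval of -0.14 to 0.14 (limma adjusted p = 0.980), and its sign turned in the authors' deposited table and without TG replicate 1 or WT replicate 3.

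Plin2 encodes perilipin 2, the main coat protein of lipid droplets outside adipocytes. It lies on chromosome 4 at 86656565 to 86670059, minus strand. It stood at 204, 206 and 203 TPM in TG libraries and at 170.3, 171 and 165 TPM in WT libraries. The groups did not overlap, and the TG libraries lay within 3 TPM of each other. The mean was 204 ± 1.45 TPM in TG and 169 ± 3.39 TPM in WT (SD, n = 3 each), a log2 fold change of 0.27 ± 0.023 (SE, limma adjusted p = 0.000154). It has the most reads of the 10 genes, 4744 to 5058 in TG libraries and 3888 to 4116 in WT libraries.

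Cpt1a encodes carnitine palmitoyltransferase 1A, which makes the acylcarnitines that enter mitochondria. The gene is on chromosome 19 at 3323301 to 3385733, plus strand. It stood at 29.6, 28.5 and 29.7 TPM in TG libraries and at 24.3, 25.5 and 26.7 TPM in WT libraries. The groups did not overlap, though TG replicate 2 and WT replicate 3 came near each other. The log2 fold change was 0.19 ± 0.048 (SE, limma adjusted p = 0.0241). The call was lost without TG replicate 1 (limma adjusted p = 0.0711), TG replicate 3 (0.0808), WT replicate 1 (0.0654) or WT replicate 2 (0.0605), and held with voom on the recovered reads (adjusted p = 0.000407).

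Pdk4 encodes a pyruvate dehydrogenase kinase that turns cells from glucose to fatty acid oxidation and is a classical PPAR target. It lies on chromosome 6 at 5483351 to 5496278, minus strand. It stood at 0.288, 0.378 and 0.328 TPM in TG libraries and at 0.567, 0.682 and 0.463 TPM in WT libraries. The groups did not overlap, but the values rest on 13, 16 and 15 reads in TG libraries and 24, 30 and 20 reads in WT libraries. Summed, there were 44 reads in TG (exact 95% Poisson interval 32.0 to 59.1) and 74 reads in WT (58.1 to 92.9), intervals that cover counting error only. Tested with no filter on low values, Pdk4 was not called (limma adjusted p = 0.0976).

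The authors' deposited table is their own comparison of the same libraries. The length it gives a gene is the end less the start, introns included, in 100% of its rows, while 88.7% of rows of the TPM table have a shorter length, and over which bases its reads were counted is not given in the sources used here. In it Lpl, Plin2 and Cpt1a were called higher, with log2 fold changes of 0.82, 0.23 and 0.17 and adjusted p-values of 2.26e-57, 1.00e-16 and 0.00228, where 11.2% of its genes were called higher. Ppard and Fabp5 were called lower in the authors' deposited table, with log2 fold changes of -0.33 and -0.76 and adjusted p-values of 1.26e-12 and 6.94e-52, where 13.2% were called lower. The authors' deposited table gives Pparg, Angptl4 and Pdk4 log2 fold changes of -0.02, -0.23 and -0.85, with adjusted p-values of 0.914, 0.575 and 0.120. Its Pparg row is another transcript, NM_001127330.

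**Figure D2:**
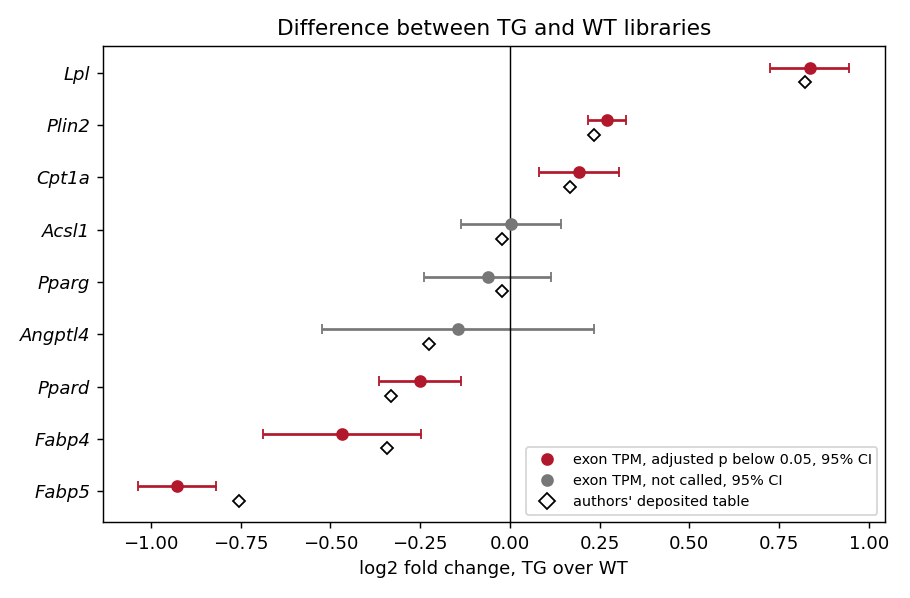
Log2 fold change (TG over WT) of the 9 tested genes on the log2(TPM + 1) scale with the 95% interval of limma (circles, red where the adjusted p was below 0.05), and the fold change in the authors' deposited table (open diamonds). Lpl at 0.84 and Fabp5 at -0.93 stand farthest from 0 on either side, and the intervals of Acsl1, Pparg and Angptl4 cover 0.

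Of 15 tested genes for RXRs and coregulators, partners of the receptors, 1 rose and 0 fell (limma), with 0 lower at an unadjusted p below 0.05, and the median log2 fold change was 0.05. The 1 that rose stands beside 8.71% of all tested genes called higher. With voom 3 were called higher and 0 lower. The authors' deposited table calls 2 higher and 2 lower, counted over all 19 genes of the list, without the filter on low values. Ppara, the gene of PPAR-alpha, stood at 0.130 TPM in TG and 0.433 TPM in WT, from 36 reads over the TG libraries and 117 over the WT libraries. Both means lay below the filter of 1 TPM, so Ppara was not tested in the main fit. The gene that rose was the coactivator gene Ncoa3, at 39.0 TPM in TG and 34.98 TPM in WT (limma adjusted p = 0.0441), a call lost without TG replicate 2 or 3 or any 1 WT replicate (adjusted p up to 0.132). The coactivator genes Ncoa1, at 9.09 TPM in TG and 8.14 TPM in WT, and Ep300, at 23.7 TPM in TG and 22.2 TPM in WT, were not called (limma adjusted p = 0.161 and 0.199).

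Of 15 tested genes of fatty acid uptake, activation and binding 2 rose and 4 fell (1 without TG replicate 2, 2 without TG replicate 3 or WT replicate 2), with a median log2 fold change of -0.07. The counts of this list and of those that follow stand beside 8.71% of all tested genes called higher and 13.2% called lower. Cd36, a fatty acid translocase and scavenger receptor gene that is a known PPAR-gamma target, rose 2.27-fold, to 61.9 ± 0.532 TPM in TG against 27.3 ± 1.21 TPM in WT (SD, n = 3 each; limma adjusted p = 1.94e-06). The acyl-CoA synthetase gene Acsf2 rose, with 24.1 TPM in TG and 20.2 TPM in WT (limma adjusted p = 0.0114). Fabp2, the intestinal binding protein gene of enterocytes, fell to 8.30 TPM in TG against 14.99 TPM in WT (limma adjusted p = 0.000102). Colon epithelial markers, Fabp2 among them, summed to 652 to 656 TPM in TG and 1117 to 1124 TPM in WT, with 10 of 15 lower and 1 higher. The 3 given next were named after their values were seen. Car1, at 164 TPM in TG and 497 TPM in WT, has the highest WT level of the list and weighs most in these sums. Epcam was at 36.6 TPM in TG and 42.1 TPM in WT, and Tff3, the 1 higher, at 58.2 and 47.5 TPM. The part of the epithelial markers in these results was not tested.

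Around lipoprotein lipase, 2 of 11 tested genes rose and 4 fell (2 without any 1 library other than WT replicate 2), with a median of -0.12. Lipa, which encodes lysosomal acid lipase, rose to 110.1 ± 1.69 TPM in TG against 90.0 ± 1.54 TPM in WT, and the endocytic receptor gene Lrp1 fell to 81.0 ± 0.597 TPM in TG against 98.4 ± 0.727 TPM in WT (SD, n = 3 each; limma adjusted p = 0.000265 and 0.000209). Apoe, the apolipoprotein E gene, was at 21553 TPM in TG and 20482 TPM in WT (limma adjusted p = 0.00228), a call lost in the authors' deposited table, with no filter on low values and without the mean-variance trend. Gpihbp1, which anchors lipoprotein lipase to capillary endothelium and was named after its values were seen, had 0 reads in the 3 TG libraries and 20 in the 3 WT libraries (limma adjusted p = 0.0394), a call lost without any 1 TG replicate or WT replicate 1 (adjusted p up to 0.0984), and without WT replicate 3 its mean fell under the filter.

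Of 26 tested genes of the lipid droplet coat and triglyceride turnover 3 rose and 8 fell, with a median of -0.07. The number that rose was 1 without any 1 TG replicate or WT replicate 2, and at most 2 with any 1 library left out. Both enzymes of the last step of triglyceride synthesis were among those that fell: Dgat1 was at 40.3 ± 0.238 TPM in TG and 55.6 ± 1.83 TPM in WT, and Dgat2 at 17.2 ± 0.867 TPM in TG and 24.5 ± 1.84 TPM in WT (SD, n = 3 each; limma adjusted p = 0.000114 and 0.00186). G0s2, an inhibitor of triglyceride lipase, fell to 22.2 TPM in TG against 36.7 TPM in WT (limma adjusted p = 4.49e-05). Hilpda, which encodes another lipase inhibitor on droplets and was named after its values were seen, fell to 51.9 TPM in TG against 67.5 TPM in WT (limma adjusted p = 0.00213). Plin2 rose beside these falls. The droplet coat gene Plin3, named after its values were seen, was at 32.6 TPM in TG and 31.1 TPM in WT (limma adjusted p = 0.603).

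Mitochondrial fatty acid oxidation genes mostly did not pass the test, with 1 of 29 higher, 1 lower and a median of -0.0026, a sign that turned with either other scaling (0.03 and 0.02). Ucp2, a mitochondrial carrier gene, rose to 1159 TPM in TG against 1066 TPM in WT (limma adjusted p = 0.000674, lost without the mean-variance trend). Eci1, at 17.3 TPM in TG and 15.004 TPM in WT, missed the threshold (limma adjusted p = 0.0516). Cpt2, which follows Cpt1a in the import of acyl groups and was named after its values were seen, was at 8.07 TPM in TG and 8.21 TPM in WT (limma adjusted p = 0.900).

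Of 15 tested peroxisomal oxidation genes 2 rose and 2 fell, with a median of 0.08, counts near the shares over all tested genes (8.71% higher and 13.2% lower). Without TG replicate 2, 0 rose and 0 fell, and without any other 1 library 1 rose. The peroxisomal transporter gene Abcd3 fell to 9.15 TPM in TG against 11.7 TPM in WT, and its relative Abcd2 rose to 3.38 TPM in TG against 2.24 TPM in WT (limma adjusted p = 0.0139 and 0.0149). Both calls were lost without TG replicate 2 (limma adjusted p = 0.0521 and 0.0567). In the pyruvate dehydrogenase list 0 of 13 rose (limma, with 1 higher at an unadjusted p below 0.05, 0 with voom and 0 in the authors' deposited table) and 1 fell. The gene that fell was Pdk1, a kinase gene induced by hypoxia, at 6.43 ± 0.250 TPM in TG and 9.91 ± 0.378 TPM in WT (SD, n = 3 each; limma adjusted p = 0.000915). Pdk3, at 13.3 TPM in TG and 14.95 TPM in WT, and Pdhx, at 7.37 TPM in TG and 5.95 TPM in WT, were not called (limma adjusted p = 0.187 and 0.0851).

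**Figure D3:**
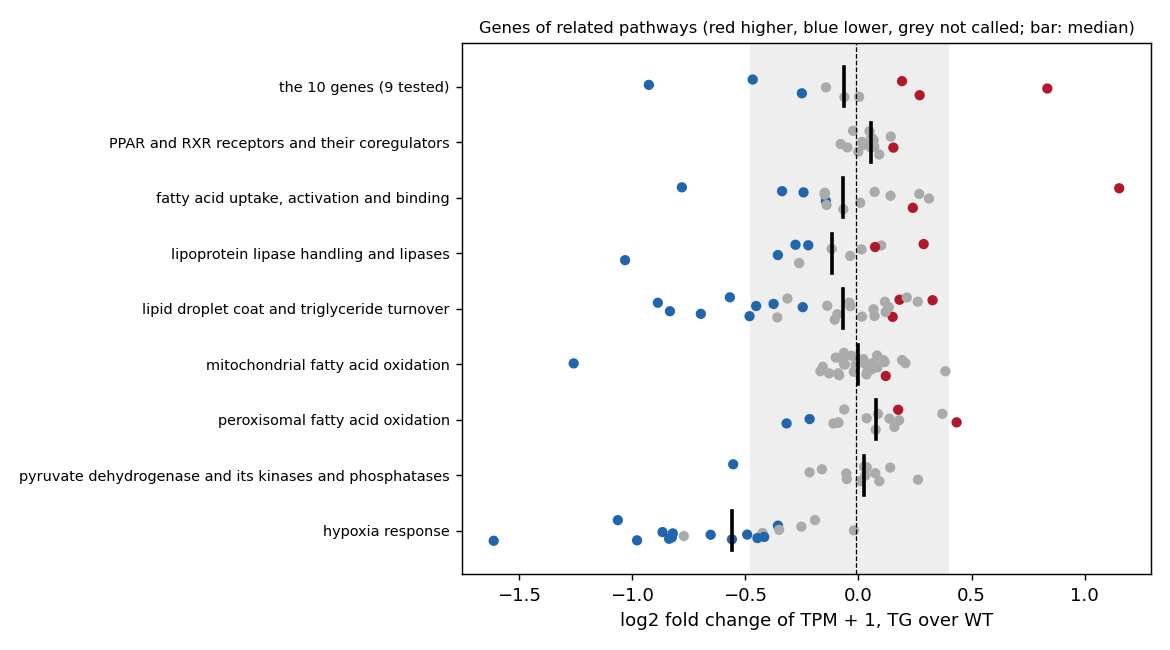
Log2 fold change (TG over WT, on the log2(TPM + 1) scale) of every tested gene in each list, called higher in red, called lower in blue and not called in grey. The black bar is a list's median, the dashed line the median of all tested genes at -0.01, and the shaded band holds the middle 90% of all tested genes, from -0.47 to 0.40; Fabp5 and Lpl lie outside it, and the hypoxia list has a median of -0.56.

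Plin2, Angptl4 and Pdk1 are known hypoxia targets, so genes of the hypoxia response were set beside them. Of 19 tested hypoxia genes 13 fell and 0 rose (limma), with 0 higher at an unadjusted p below 0.05, 0 with voom and 0 in the authors' deposited table, and the median log2 fold change was -0.56. The angiogenic factor gene Vegfa was at 45.6 TPM in TG and 90.8 TPM in WT, the glucose transporter gene Slc2a1 at 44.1 TPM in TG and 78.6 TPM in WT, and the lactate dehydrogenase gene Ldha at 263 TPM in TG and 359 TPM in WT. In the same libraries Plin2 rose and Angptl4 was not called.

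Markers of other cell types also differed between TG and WT libraries. Neutrophil markers summed to 494 to 552 TPM in TG libraries and 1182 to 1217.5 TPM in WT libraries, with 8 of 9 lower. Monocyte markers summed to 586 to 597 TPM in TG and 735 to 772 TPM in WT, with 4 of 8 lower and 2 higher. The monocyte genes given next were named after their values were seen. Among the lower ones, Hp was at 44.9 TPM in TG and 190 TPM in WT, and Chil3 at 11.1 and 69.0 TPM. The 2 higher ones were Ccr2, at 143 TPM in TG and 119 TPM in WT, and F13a1, at 216 and 191 TPM. The monocyte sum thus does not describe every gene in it. Fibroblast and smooth muscle markers summed to 119.9 to 124 TPM in TG and 165 to 167 TPM in WT, with 5 of 10 lower. Dendritic cell markers summed to 212 to 226 TPM in TG and 164 to 171 TPM in WT, with 5 of 9 higher. The parts of these cell types in the levels of the 10 genes were not tested.

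**Figure D4:**
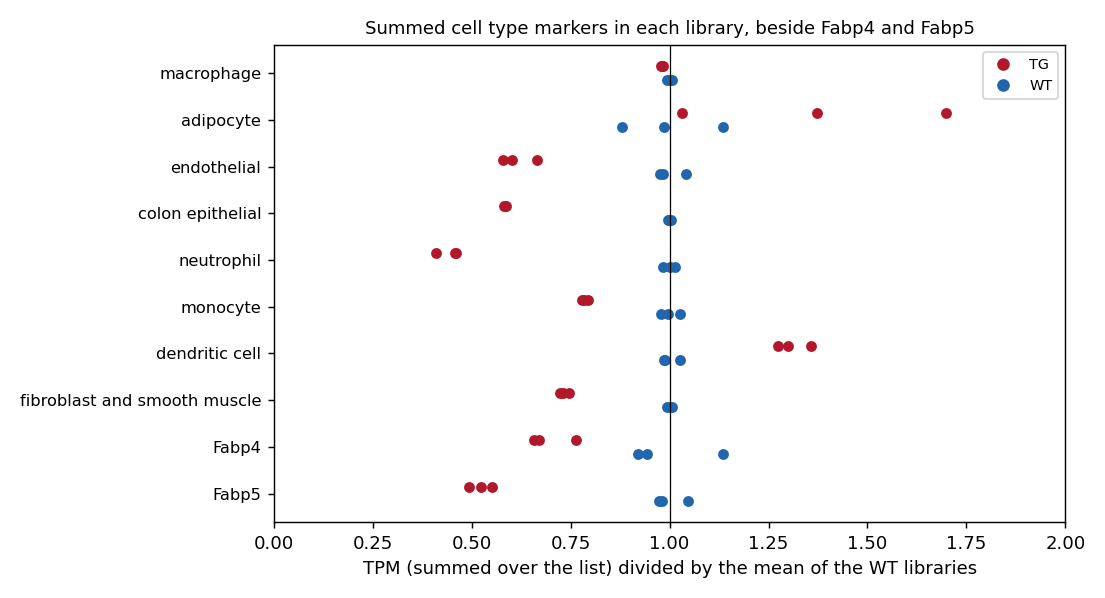
Summed TPM of each cell type marker list, and the TPM of Fabp4 and Fabp5, in each library, divided by the mean of the 3 WT libraries. TG libraries lie lower than WT libraries for the sums of endothelial, epithelial, neutrophil, monocyte and fibroblast markers, and higher for that of dendritic cell markers. Of the 8 monocyte markers 4 were called lower and 2 higher. Macrophage markers lie close to 1, and the few adipocyte marker reads overlap between the groups. Fabp4 and Fabp5, the only genes of the followed set drawn here, lie lower in TG libraries. Of the genes not drawn, Lpl, Plin2 and Cpt1a were higher in every TG library than in any WT library. Ppard and Pdk4 were lower, and Pparg, Acsl1 and Angptl4 overlapped between the groups.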

How the data were processed

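Per the labels' protocols, colon macrophages were sorted and polyadenylated RNA was sequenced. Per the submitters' processing notes, bcl2fastq, STAR, HOMER 4.11.1 and DESeq2 were used with the mm10 build, with no order or settings recorded. The authors deposited TPM for 25124 transcripts, 1 a gene, in columns that sum to 543612 to 545319. Their second deposited table, per its header, has log2 values per library, the log2 fold change of TG over WT (same sign as in the TPM for 99.8% of genes) and p-values, raw and adjusted, in 24421 rows, 3537 of them without a fold change.

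The 6 libraries were compared with limma 3.58.1 (R 4.3.3) on log2(TPM + 1) with a mean-variance trend, genotype as the single term and Benjamini-Hochberg adjustment over all genes tested. Fold changes on this scale understate the change of genes with low values. The fit was tested on simulated data. Reads were recovered from TPM, exon length and 1 step size for each library, and came out whole for at least 99.9% of values of up to 1000 reads (tolerance 0.1 reads). The voom fit on them, an alternative chosen after seeing the data, called 1637 genes higher and 2074 lower. A count of 0 allows up to 3 reads, or 0.113 to 0.122 TPM for a transcript of 2000 bases. An exact permutation test of 3 against 3 libraries cannot give a p below 0.10, and the 6 called genes among the 10 had that value. Each library was counted as 1 sample. Chi-square per degree of freedom, pooled over genes, was 2.06 to 2.75 between libraries of a group, above counting noise. Spread from library preparation could give such values too, so they do not show whether the libraries are separate mice.

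The named genes are the 10 genes, Nfil3, and the 3 genes of each pathway list with the lowest unadjusted p, beside those said to be named after their values were seen. Some genes that this rule takes are not reported here. The genes and lists were chosen with earlier results of these data known. Alternatives covered the pseudocount, filter, scaling, trend, replicate block, each library left out and the authors' table. The library kit is not described as keeping strand. The 10 rows were matched to GENCODE vM21 transcripts, and no exon of these overlaps an exon of another gene there. The matched transcripts can differ in exon length from the rows, as for Angptl4 (3308 against 1894 bases) and Pparg (2125 against 1787 bases).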

Additional observations from a re-analysis of the deposited data

How the results depend on the processing

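Over 15 alternatives each (2 for Pdk4 and 14 for Angptl4), the calls of Lpl, Fabp5, Plin2 and Ppard kept their direction and stayed past the threshold, and no call was gained among the 10 genes. Lpl ranged from 0.81 to 0.87 and Fabp5 from -0.96 to -0.76 on the log2 scale. Cpt1a was also lost without the mean-variance trend. Over the libraries left out in turn, the genes among the 10 called higher numbered 2 to 3 and those called lower stayed at 3. Over all tested genes, 1100 were called higher and 1666 lower, and without 1 library 704 to 883 and 1231 to 1373, with the fewest higher without TG replicate 2 (704) and TG replicate 3 (721). The authors' deposited table calls 2343 higher and 2756 lower. Upper-quartile scaling gave 1425 higher and 1315 lower, or 52.0% higher against 39.8%, with a shift of the median of 0.03. No pairing of the replicate numbers is stated, and deviations of same-numbered libraries were hardly correlated (-0.013, -0.043 and 0.032), which cannot exclude a pairing. With the replicate block 922 genes were higher and 1457 lower, with the same 3 and 3 counts among the 10 genes. Low reads limit Pdk4, Angptl4 and Fabp4.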
